A study of Mus musculus with 31 samples.

Results

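The folate one-carbon cycle was followed through 8 enzyme genes, Shmt1, Shmt2, Mthfd1, Mthfd1l, Mthfd2, Tyms, Mtr and Mtrr, out of the 41255 gene symbols measured. They were picked by name as the cytosolic and mitochondrial folate enzymes that are fed by serine. The rule uses no measured value, although earlier results of these data were known when the members were chosen. All 8 had a row in the total mRNA table and in the polysomal RNA table, and all 8 passed the minimum mean of 10 normalised reads in both, a normalised read being a read count divided by the size factor of its library.

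The cells were Ba/F3, a mouse lymphoid line that depends on the cytokine IL-3 for growth. Clones expressed human RPL10, a protein of the large ribosomal subunit, either as WT or with the arginine-to-serine change R98S, a mutation of T-cell acute lymphoblastic leukemia. In both genotypes the human gene came from a retrovirus and endogenous Rpl10 had been lowered with an shRNA, and each line was grown from a single clone. R98S clones 11, 13 and 35 and WT clones 28, 29 and 36 gave 17 libraries of total mRNA (9 R98S, 8 WT) and 14 of polysomal RNA (8 R98S, 6 WT), the latter made from pooled gradient fractions with several ribosomes per transcript. Each library carries a replicate number from 1 to 3. The number 1 total mRNA library of WT clone 36, which the study left out because of its profile, was not analysed here, so differences in total mRNA are conditional on that selection.

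Tetrahydrofolate carries single carbon units from serine to the synthesis of purines, thymidylate and methionine. Serine hydroxymethyltransferase splits serine into glycine and a carbon unit held on folate, in mitochondria through Shmt2 and in the cytosol through Shmt1. The mitochondrial arm then oxidises the unit through Mthfd2 and releases it as formate through Mthfd1l, and Mthfd1 puts formate back on folate in the cytosol. There the unit is spent by Tyms, which makes thymidylate, by the purine enzymes, or by methionine synthase (Mtr), whose cobalamin is kept reduced by Mtrr. Proliferating lymphoid cells are known for high mitochondrial folate enzyme levels, and Mthfd2 and Shmt2 are textbook targets of the amino acid stress factor ATF4.

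In the mm10 build (GRCm38, GENCODE M21 annotation) the mitochondrial arm lies at chr10:127517123-127522444 on the minus strand (Shmt2), chr6:83305691-83325908 on the minus strand (Mthfd2) and chr10:3973118-4167081 on the plus strand (Mthfd1l). Shmt1 lies at chr11:60788104-60811718 (minus), Mthfd1 at chr12:76255298-76319803 (plus), Tyms at chr5:30058202-30073617 (minus), Mtr at chr13:12182712-12258113 (minus) and Mtrr at chr13:68560780-68582149 (minus). Exon bases shared with a gene on the opposite strand made up 4.74% of Shmt1 (Smcr8), 1.03% of Shmt2 (Ndufa4l2) and 0.833% of Mthfd1. Between 0% and 5.72% of the 50-base windows of a member's transcripts also occurred in a transcript of another gene, the highest share being that of Tyms.

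The 3 genes of the mitochondrial arm are the members that were called lower on polysomes once the replicate number was taken into account, so the windows around their start sites are shown. Each runs from 250 bases before to 50 bases after the annotated start (RefSeq, GRCm38.p6), 5′ to 3′ on the strand of the gene, and lies at chr6:83317555-83317854 for Mthfd2, chr10:3972825-3973124 for Mthfd1l and chr10:127522395-127522694 for Shmt2. The RefSeq start of Mthfd2 lies inside the gene span given above, which reaches farther upstream. That of Mthfd1l lies upstream of its gene span. The bases just after it were not found in a GENCODE transcript of the gene, unlike those of Mthfd2 and Shmt2. Capitals mark every match to the motifs searched on both strands, which were the E-box CACGTG, the core TGATGNAA of the ATF4 composite element, the E2F sites TTTCCCGC and TTTGGCGC, and the NF-Y box CCAAT.
Mthfd2: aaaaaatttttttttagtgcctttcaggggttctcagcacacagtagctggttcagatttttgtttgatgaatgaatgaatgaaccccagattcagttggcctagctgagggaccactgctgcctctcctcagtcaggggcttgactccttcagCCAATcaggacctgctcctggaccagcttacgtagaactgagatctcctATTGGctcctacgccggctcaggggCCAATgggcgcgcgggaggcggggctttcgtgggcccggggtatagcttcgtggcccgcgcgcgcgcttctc
Mthfd1l: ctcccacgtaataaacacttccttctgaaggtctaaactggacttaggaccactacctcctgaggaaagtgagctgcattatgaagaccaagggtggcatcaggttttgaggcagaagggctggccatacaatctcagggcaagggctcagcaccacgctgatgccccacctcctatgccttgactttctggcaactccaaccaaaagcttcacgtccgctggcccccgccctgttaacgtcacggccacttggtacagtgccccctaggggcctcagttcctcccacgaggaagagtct
Shmt2: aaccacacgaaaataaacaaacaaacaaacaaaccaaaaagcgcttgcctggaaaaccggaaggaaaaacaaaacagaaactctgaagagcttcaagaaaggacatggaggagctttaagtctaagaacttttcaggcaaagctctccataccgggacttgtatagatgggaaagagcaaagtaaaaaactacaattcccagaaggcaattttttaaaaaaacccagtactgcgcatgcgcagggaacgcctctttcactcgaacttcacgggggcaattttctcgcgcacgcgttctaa
Mthfd2 held 3 NF-Y boxes, with the first printed base of each at -96, -47 and -22 from the start, whereas the windows of Mthfd1l and Shmt2 matched none of the motifs. At least 3 NF-Y boxes occurred in 3.56% and at least 1 in 37.9% of 27025 promoter windows of this length. Of the other members, Shmt1, Mthfd1, Mtr and Mtrr also held an NF-Y box and Tyms held an E-box, which 7.24% of all windows contain. The ATF4 core occurred in 4.06% and an E2F site in 1.63% of all windows, and neither of them in the window of a member.

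Reads on genes ranged from 8831180 to 22059792 per library. Of the 12 markers listed for this cell type, 6 had a mean of at least 10 normalised reads in total mRNA, among them the IL-3 receptor genes Il3ra, Csf2rb and Csf2rb2 and the B-cell genes Cd79a and Cd79b. The defining pro-B markers Ebf1, Pax5, Vpreb1, Igll1 and Kit were at or near 0. Of the T-cell markers 2 of 5 passed the minimum (Cd3d, up to 97.4, and Cd3g, up to 176.7 normalised reads), and of those of granulocytes and macrophages 2 of 5 (Mpo, up to 342.2, and Lyz2, up to 104.4). All 4 erythroid markers passed the minimum, with Gata1 between 1519 and 4801 normalised reads, and none of the 5 stromal or epithelial ones did. Rpl10, to which reads of the human gene can align, had 901.4 to 2984 normalised reads in R98S and 620.3 to 5715 in WT total mRNA (medians 1222 and 1352), and 666.4 to 2046 in R98S and 1100 to 5567 in WT polysomal RNA (medians 1117 and 2719). Total mRNA of R98S clone 13 and WT clone 36 with number 3 deviated from the genotype means in a like manner (r = 0.484 over genes). The deviations of that WT library had r = 0.313 with number 1 and 0.0176 with the other libraries of number 3, and those of the R98S library 0.0925 and 0.0493. The other 4 total mRNA libraries of number 3 had r = -0.398 to -0.261 with number 1. With the rest of number 3 they had r = 0.00906 to 0.224, so likeness to number 3 did not set the R98S library apart (what this stands for was not tested). Without that WT and that R98S library, the number 3 differences of total mRNA were -0.59 for Mthfd1l, -2.71 for Mthfd2 and 0.65 for Mtrr on the log2 scale, and the replicate block called the same 3 members. In addition, polysomal RNA of WT clone 28 with number 2 was left out in an alternative that was chosen after seeing the data. The closest pair were those of polysomal RNA from R98S clone 13 under numbers 1 and 2, at a chi-square of 4.56 for each gene, against about 1 for pure counting noise. The fold changes of the 8 members and the counts over all genes were also computed without these libraries, or with that pair counted as 1 sample.

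Levels can be compared between genes per length only. Per kilobase of merged exons, Shmt2 had the highest level in WT total mRNA with 1580 ± 649 normalised reads (SD, n = 8), followed by Mthfd2 with 1101 ± 655, Mthfd1l with 872 ± 156 and Mthfd1 with 580 ± 277. Tyms with 340 ± 90.5 and Shmt1 with 293 ± 93.5 came next, and Mtr with 88.4 ± 10.7 and Mtrr with 57.7 ± 21.9 were the lowest. Neighbours in this order overlapped between libraries, except that every WT library of Shmt1 (158.7 to 457.8 per kilobase) was above every WT library of Mtr (78.4 to 108.6). On this length the 3 mitochondrial genes had the highest means, and the methionine synthase pair lay apart at the low end. Merged exons join those of all annotated transcripts of a gene (6089 bases for Tyms), and the transcripts in use can be shorter. The order therefore depends on the length taken, and other lengths were not tested. In R98S total mRNA the means ran Shmt2 (1349 per kilobase), Mthfd1l (671), Mthfd2 (591), Mthfd1 (577), Shmt1 (342), Tyms (316), Mtr (104) and Mtrr (77.4).

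**Figure D1:**
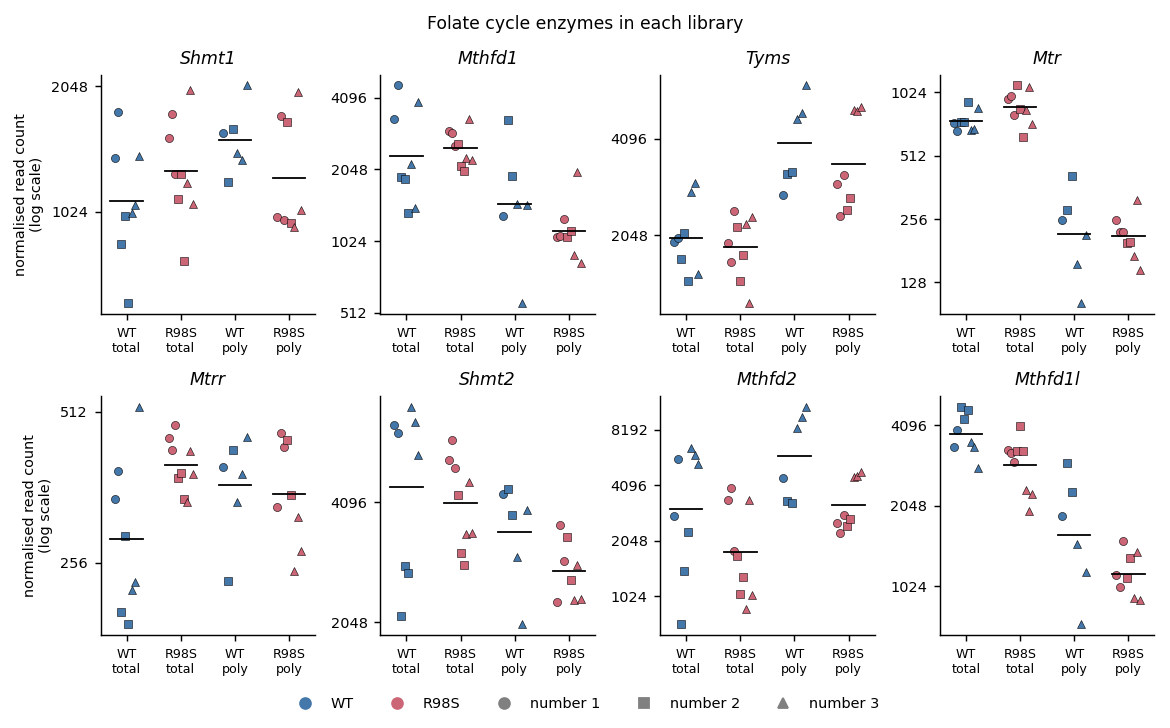
Normalised read count of each of the 8 genes in every library, on a log scale, for WT (blue) and R98S (red) in total mRNA and polysomal RNA (poly). Symbols give the replicate number and horizontal lines the mean of the log2 values. R98S and WT libraries overlap in every panel, and Mthfd2 on polysomes is the panel with the widest shift between the genotype means.

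In total mRNA the question was whether the transcripts of the cycle differ between R98S and WT cells. Each gene was tested with limma, a linear model on log2(value + 1), and called at a p under 0.1 after Benjamini-Hochberg adjustment over all genes. Of the 8 genes, 2 were called, where 30.3% of the 11133 genes tested were called, so the share of members called was close to the background. Mthfd1l was lower and Mtrr higher in R98S. Among all 8, 4 had a higher and 4 a lower mean in R98S, with a median log2 fold change of 0.01 against 0.00 over all genes. In bulk RNA a lower level can mean fewer expressing cells or less RNA per cell, and these cannot be told apart.

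Mthfd1l, the mitochondrial formate-releasing enzyme, had 1965 to 4078 normalised reads in R98S (median 3227) and 2827 to 4819 in WT (median 3737). The libraries of the genotypes overlapped, and the 3 R98S libraries of number 3 were lower than any WT library. R98S differed from WT by -0.39 on the log2 scale (SE 0.14, adjusted p 0.0525 by limma), so that WT was 1.31-fold above R98S. With the replicate number as a block the log2 difference was -0.40 (SE 0.08, limma adjusted p 0.00129), where 38.4% of all genes were called in that fit. Within the replicate numbers the R98S values were below every WT value of the same number each time, with log2 differences of -0.21, -0.38 and -0.57 for numbers 1 to 3. Such a complete order in this direction was seen in 4.33% of all genes tested, and Mthfd1l was the single member of the 8 to show it in total mRNA. The call without the block was lost with quantile normalization (adjusted p 0.104) and without R98S clone 11, R98S clone 35, WT clone 28, WT clone 29, number 2 or number 3 (limma adjusted p 0.108 to 0.149), while the log2 fold change stayed between -0.47 and -0.33.

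Mtrr, the reductase that reactivates methionine synthase, had 337.6 to 481.5 normalised reads in R98S (median 386.5) and 192.7 to 524.3 in WT (median 261.3). WT clone 36 with number 3 was the highest of all 17 libraries, while 6 of the other 7 WT libraries were at 342.3 or below. On the log2 scale the difference was 0.49 (SE 0.17, adjusted p 0.0452 by limma), a 1.41-fold higher level in R98S. It was higher within each number, by 0.31, 0.71 and 0.33. With the replicate block the log2 difference was 0.46 (SE 0.15, limma adjusted p 0.0273). The call without the block was lost without R98S clone 11 (limma adjusted p 0.118), R98S clone 13 (0.126), WT clone 28 (0.195) or number 2 (0.281), and without number 1 (0.1), with the log2 fold change between 0.35 and 0.61 over all alternatives. Its partner Mtr, methionine synthase itself, had 627.2 to 1104 reads in R98S (median 854.3) and 668.3 to 925.5 in WT (median 736.7), a log2 fold change of 0.22 (95% interval -0.02 to 0.46, limma adjusted p 0.171) that did not pass.

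Mthfd2, the mitochondrial dehydrogenase, had the widest spread of the 8 genes in total mRNA. R98S libraries ran from 879.1 to 3978 (median 1706) and WT libraries from 723.4 to 6535 (median 4076). The log2 fold change was -0.78 (SE 0.43, 95% interval -1.68 to 0.12) and did not pass (limma adjusted p 0.201), but it was called when the replicate number was a block, that is a term of its own in the model (log2 fold change -0.85, limma adjusted p 0.0689, with 38.4% of all genes called in that fit). The difference was uneven over the numbers, at -0.46 for number 1, 0.01 for number 2 and -2.02 for number 3, and without number 2 it was called (-1.30, limma adjusted p 0.0402), as it was with clone means (-0.80, limma adjusted p 0.0444). Without number 3 it was -0.07 (limma adjusted p 0.95).

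Shmt2, the mitochondrial serine hydroxymethyltransferase, went in opposite directions in different numbers. In number 1 the R98S libraries, at 5002, 5233 and 5894, were below both WT libraries at 6121 and 6430. In number 2 the order was turned, with R98S at 2857, 3051 and 4269 and WT at 2126, 2721 and 2837. In number 3 R98S was lower again, at 3404, 3424 and 4608 against 5376, 6542 and 7137 in WT. Over all libraries the log2 fold change was -0.14 (95% interval -0.64 to 0.37, limma adjusted p 0.725), without number 2 it was -0.48 and called (limma adjusted p 0.0465), and without number 3 it was 0.21 (limma adjusted p 0.716).

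Shmt1, Mthfd1 and Tyms, which act in the cytosol, were not called in total mRNA. Shmt1 had a median of 1258 normalised reads in R98S (range 779.8 to 2006) and 1040 in WT (range 616.3 to 1778), with a log2 fold change of 0.24 (95% interval -0.17 to 0.65, limma adjusted p 0.408). Mthfd1, which carries 3 enzyme activities of the cytosolic cycle in a single protein, had medians of 2561 in R98S and 2038 in WT, with a log2 fold change of 0.11 (95% interval -0.34 to 0.57, limma adjusted p 0.749). Its R98S libraries were all below the WT libraries of number 1 and all above those of number 2. Tyms had medians of 1941 and 1978, with a log2 fold change of -0.10 (95% interval -0.42 to 0.23, limma adjusted p 0.705).

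**Figure D2:**
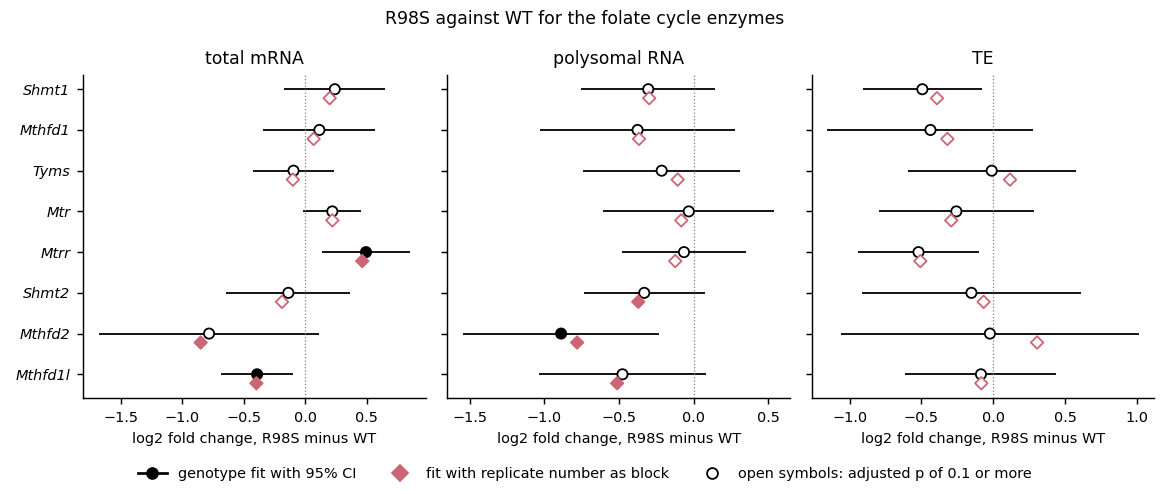
Log2 fold change of R98S against WT for the 8 genes in total mRNA, polysomal RNA and TE (log2 polysomal minus log2 total of a culture). Circles with bars give the limma estimate with its 95% interval, diamonds the estimate with the replicate number as a block, and filled symbols an adjusted p under 0.1. All circles lie below 0 in polysomal RNA, and Mthfd2 is the only filled one there.

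On polysomes the means of all 8 genes were lower in R98S, with a median log2 fold change of -0.32 against -0.02 over all genes. The sign of Mthfd1, Mtr and Mtrr turned in some fits that left out a number or clone. A single member was called. That is 1 of 8, where 13.5% of the 10707 genes tested were called by limma. With the replicate number as a block 3 of 8 were called, all of them lower and all from the mitochondrial arm, where 30.9% of all genes were called in that fit and 15.7% were called lower.

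Mthfd2 had 2269 to 4837 normalised reads in R98S (median 2764) and 3292 to 10909 in WT (median 6403). The lowest WT library was above 5 of the 8 R98S libraries, and the other 3, all of number 3, lay within the WT range. On the log2 scale R98S lay 0.89 lower (difference -0.89, SE 0.31, adjusted p 0.0893 by limma), so that WT was 1.85-fold above R98S, and with the block it was -0.78 (SE 0.12, limma adjusted p 0.000283). In number 1 the R98S libraries had 2269, 2558 and 2836 reads against 4485 in the lone WT library. In number 2 they had 2470 and 2692 against 3292 and 3352, and in number 3 they had 4562, 4565 and 4837 against 8320, 9626 and 10909. R98S was therefore below WT in each number without overlap, by 0.82, 0.37 and 1.04 on the log2 scale, an order seen in this direction in 6.29% of all genes tested. The call without the block depended on single clones and on the unit of replication. The adjusted p was 0.109 without WT clone 28, 0.154 without R98S clone 11, 0.212 without WT clone 36, 0.218 without R98S clone 35 and 0.23 without R98S clone 13, 0.405 without number 1, 0.125 with no filter on low genes, and 0.154 when the closest pair of libraries was counted as 1 sample. The log2 fold change lay between -1.20 and -0.52 in all of the alternatives.

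**Figure D3:**
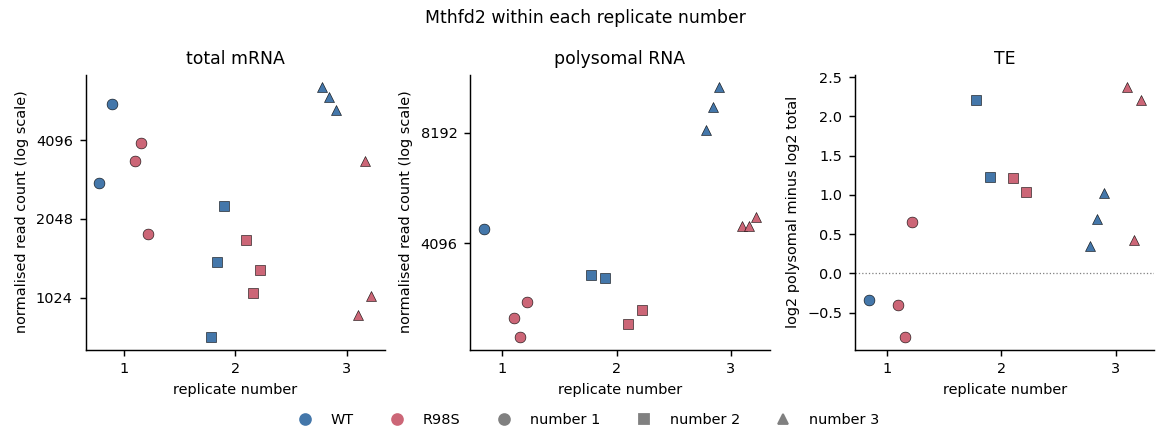
Mthfd2 in every library by replicate number, as normalised read count in total mRNA and polysomal RNA (log scale) and as TE, with WT in blue and R98S in red. On polysomes R98S lies below WT in each number, whereas in total mRNA the genotypes separate in number 3 alone.

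Mthfd1l had 907.7 to 1515 normalised reads in R98S polysomal RNA (median 1111) and 737.4 to 2954 in WT (median 1676). The log2 fold change was -0.48 (95% interval -1.03 to 0.08, limma adjusted p 0.322), and it was called with the block (-0.51, limma adjusted p 0.0773). The difference was -0.65 and -1.12 in numbers 1 and 2 but -0.04 in number 3, where WT clone 29 had the lowest value of all libraries. Without WT clone 28 of number 2 it was -0.30 (limma adjusted p 0.514), without number 2 it was -0.14 (limma adjusted p 0.812), and without number 3 it was -0.96 and called (limma adjusted p 0.00785). Shmt2 had 2297 to 3590 reads in R98S (median 2736) and 2022 to 4438 in WT (median 3860), a log2 fold change of -0.33 (95% interval -0.74 to 0.07, limma adjusted p 0.35) that was called with the block (-0.37, limma adjusted p 0.0986) and without number 3 (-0.51, limma adjusted p 0.0715).

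For the cytosolic genes the polysomal values overlapped widely. Shmt1 fell into clones, with 1679 to 1985 normalised reads in R98S clone 13, 938.9 to 1031 in R98S clones 11 and 35 and 1209 to 2058 in WT. The 5 libraries of R98S clones 11 and 35 were below all WT libraries, and with clone 13 left out the difference became -0.63 (limma adjusted p 0.031) in place of -0.30 (limma adjusted p 0.466), whereas it was -0.19 (0.766) without R98S clone 11 and -0.12 (0.894) without R98S clone 35. Mthfd1 had medians of 1074 (R98S) and 1453 (WT), differing by -0.38 on the log2 scale (95% interval -1.03 to 0.28, limma adjusted p 0.557), and its WT values ran from 561.2 to 3296. Without WT clone 28 of number 2, which had the highest of these values, the log2 fold change was -0.14, and without number 3 it was -0.85 (limma adjusted p 0.045). Tyms had medians of 3061 and 3968 (log2 fold change -0.21, 95% interval -0.74 to 0.31, limma adjusted p 0.712).

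The methionine synthase pair showed no called difference on polysomes. Mtr had medians of 210.4 normalised reads in R98S and 233.7 in WT, a log2 fold change of -0.03 (95% interval -0.61 to 0.54, limma adjusted p 0.971). Mtrr had medians of 339.9 and 390.1, a log2 fold change of -0.06 (95% interval -0.48 to 0.35, limma adjusted p 0.906), so the higher total mRNA of R98S had no counterpart of that size in the polysomal estimate. Its sign turned without R98S clone 11, without WT clone 29 and without number 3.

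The replicate number was a strong source of spread on polysomes, and it touched the members unequally. Taken on its own it accounted for 89.9% of the variance of log2 polysomal Tyms and 66.9% of that of Mthfd2, against 49.1% for the median gene and 2.1% for Shmt1. Tyms ran from 4718 to 6009 normalised reads in all 6 libraries of number 3 and from 2358 to 3218 in the 8 libraries of numbers 1 and 2. In total mRNA the number accounted for 63.8% of the variance of Shmt2 and 0.402% of that of Mtr, against 26.1% for the median gene. What a number stands for is not given in the sources used here.

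To ask whether the members differ in how far their mRNA is carried on polysomes, the polysomal value of a culture was set against its total mRNA value (TE, the difference of the log2 values over 8 R98S and 6 WT cultures). Because the tables were normalised separately, a TE of 0 stands for a gene with equal values on both scales, not for a known ribosome load. Mtr had the lowest mean TE, -1.89 ± 0.47 (SD, n = 14), with all 14 cultures below 0, and only 4.23% of the genes tested were lower. Mthfd1l at -1.29 ± 0.45 was also below 0 in all 14, and Mthfd1 at -0.97 ± 0.69 in 12. Tyms at 0.89 ± 0.51 was above 0 in all 14 cultures, at percentile 96.8 of the genes tested, and Mthfd2 at 0.85 ± 0.98 in 11. Shmt2 (-0.49 ± 0.71), Mtrr (0.02 ± 0.41) and Shmt1 (0.12 ± 0.41) lay between. The ranges of Tyms (0.37 to 1.99) and Mthfd1l (-2.21 to -0.52) did not overlap, although both encode enzymes of the same cycle.

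**Figure D4:**
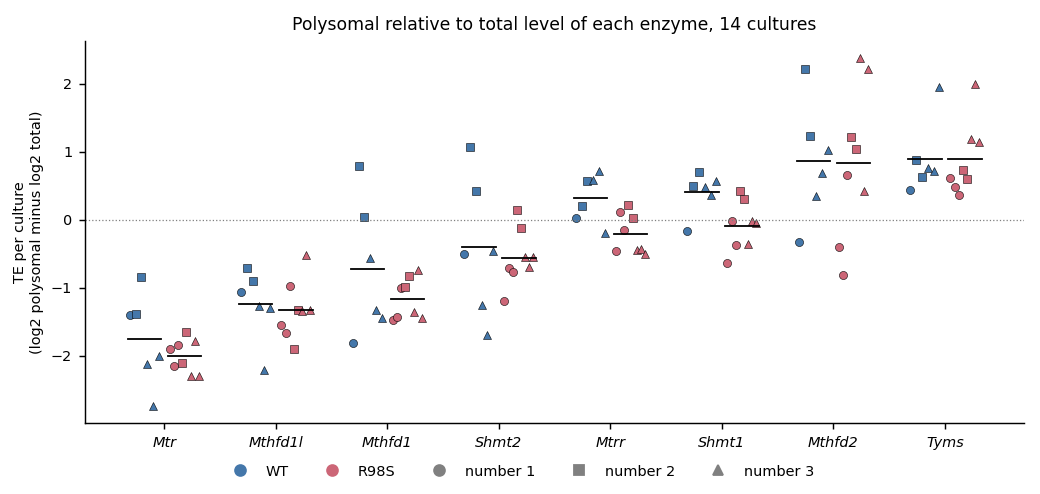
TE of each gene in the 14 cultures, as log2 polysomal minus log2 total value, with WT in blue, R98S in red, the replicate number as the symbol and the genotype mean as a line. Mtr and Mthfd1l lie below 0 in all cultures and Tyms above 0 in all, and the genotypes overlap for every gene.

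Between the genotypes no member was called in TE, with limma, with edgeR or with DESeq2, at any adjusted p under 0.1, where limma called 0.0376% of the 10627 genes tested, or 0.47% with the replicate block. An unadjusted p under 0.05 was reached by 2 of the 8, Mtrr and Shmt1, where 5.96% of all genes reached it. The mean TE of all 8 was lower in R98S, and the median log2 difference was -0.20 against 0.01 over all genes. The difference turned positive for Mthfd2 and Tyms with quantile normalization and with the replicate block (0.31 and 0.12). It also turned for Shmt2, Mthfd1l and Mthfd2 without polysomal RNA of WT clone 28 with number 2. TE is built from both tables, so its differences are not independent of those given above.

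TE of Mtrr ran from -0.51 to 0.22 in R98S (median -0.29) and from -0.20 to 0.71 in WT (median 0.39). Of the 8 R98S cultures 4 lay below all WT cultures, and the log2 difference was -0.52 (SE 0.20, unadjusted limma p 0.0193, limma adjusted p 0.747). TE of Shmt1 ran from -0.63 to 0.42 in R98S (median -0.03) and from -0.17 to 0.70 in WT (median 0.49), a log2 difference of -0.49 (SE 0.20, unadjusted limma p 0.0226, limma adjusted p 0.747). Both differences were negative in each of the 3 numbers, and their sign held under all 22 alternatives. The smallest adjusted p in these was 0.163 for Mtrr and 0.221 for Shmt1, so neither passed.

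For the other members the intervals were wide. Mthfd1 had a log2 difference in TE of -0.44 (95% interval -1.15 to 0.28), and it was -1.33 in number 2 but 0.51 in number 1. Mthfd2 had -0.02 (95% interval -1.06 to 1.01), which was -0.59 in number 2 and 0.98 in number 3. Mtr had -0.26 (-0.79 to 0.28), Shmt2 -0.15 (-0.91 to 0.61), Mthfd1l -0.09 (-0.61 to 0.44) and Tyms -0.01 (-0.60 to 0.57). Differences in TE of up to about 2-fold in Mthfd2 and Mthfd1 were therefore not excluded at this depth and number of cultures.

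Each genotype rests on 3 clones, so the clone means were also set side by side. In total mRNA they did not overlap between the genotypes for 2 of the 8 genes, Mthfd1l and Mtrr, where this held for 40.1% of all genes. Mthfd1l had mean values of 2984, 3090 and 2850 in R98S clones 11, 13 and 35 and of 3929, 3880 and 3750 in WT clones 28, 29 and 36. Mtrr had 389.5, 414.8 and 402.8 against 257.4, 304.1 and 358.5. In polysomal RNA they did not overlap for Mthfd2 alone, where this held for 27.2% of all genes, with 3560, 3101 and 3455 against 5836, 5801 and 10909, the last from a single library. That library has number 3, where polysomal Mthfd2 was highest in both genotypes. The clones do not all hold the same numbers, so the size of this gap also reflects the number. In TE the clone means did not overlap for Shmt1 alone, where this held for 17.1% of all genes. Mtr in total mRNA split the R98S clones, with 966.6 and 972.6 in clones 11 and 13 but 717.6 in clone 35, while WT clone 36 at 891.8 was above the other WT clones at 718.6 and 696.4. Without R98S clone 35 its log2 fold change was 0.36 (limma adjusted p 0.0231), and without WT clone 36 it was 0.30 (limma adjusted p 0.082), whereas it was 0.14 (0.449) without R98S clone 13, 0.15 (0.485) without R98S clone 11 and 0.16 (0.459) without WT clone 29.

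The members did not vary as a unit. Over the 17 total mRNA libraries, which share clones and replicate numbers, Pearson's r of the log2 values was 0.857 between Shmt2 and Mthfd2, 0.816 between Shmt1 and Mthfd1 and 0.754 between Mthfd1 and Mtrr, while Mthfd1l had -0.0566 with Mthfd2 and -0.58 with Mtrr. Among the 9256 genes whose mean reached 100, the patterns most like that of Mthfd2 were Iars (r = 0.97), Yars (0.944) and Slc7a11 (0.935), and those most like Shmt2 were Aars (0.964), Lars (0.952) and Nars (0.951). Iars, Yars, Aars, Lars and Nars encode aminoacyl-tRNA synthetases, and Slc7a11 a cystine transporter. Mthfd1l was most like Gpr56 (0.952), Ciart (0.948) and Pgk1 (0.94), Shmt1 most like Tada2a (0.965), Utp6 (0.965) and G3bp1 (0.95), and Mthfd1 most like Ppa1 (0.963), Chchd4 (0.952) and Bzw2 (0.949). Mtrr was most like Tmem5 (0.925), Tarbp2 (0.924) and Noc3l (0.915), Tyms most like Fbxo9, Pip5k1c and Stmn1 (0.849, 0.849 and 0.847), and Mtr most like Gtf3c1, Ercc5 and Zmat3 (0.856, 0.849 and 0.847).

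Among the genes that bring folate into the cell and hold it there, 3 of 7 were called in total mRNA, where 30.3% of all genes were called. Folr1 and Slc46a1 were higher in R98S, and the third, Folr2, reached the minimum mean of 10 only through its R98S libraries, so that its call and direction are no support. On polysomes 2 of 6 were called higher and 1 lower, where 13.5% of all genes were called. With the replicate block Fpgs, which adds the glutamate tail that keeps folate in the cell and is named here after its value was seen, was also called in total mRNA (0.48, limma adjusted p 0.0845, against 0.55 and 0.148 without it). Folr1, a folate receptor on the cell surface, had 100.8 to 257.7 normalised reads in the 9 R98S libraries and 6.02 to 80.1 in the 8 WT libraries. The genotypes did not overlap and differed by 2.63 on the log2 scale (SE 0.35, adjusted p 3.88e-05 by limma). On polysomes its libraries ran from 223 to 534.9 for R98S and from 26.4 to 74.3 for WT, again without overlap (log2 fold change 2.70, limma adjusted p 1.26e-05). Folr2, a related receptor, was low in total mRNA, with 22.6 ± 8.23 reads in R98S and 7.81 ± 2.60 in WT (SD, n = 9 and 8), the WT mean being under the minimum. Slc46a1, the proton-coupled folate transporter, was also low, with 23.5 ± 9.80 against 12.0 ± 4.51 in total mRNA (limma adjusted p 0.0336). Slc19a1, the reduced folate carrier, was called lower on polysomes, at 351 ± 45.6 (R98S) and 507 ± 141 (WT, a difference of -0.50 on the log2 scale, limma adjusted p 0.0793), and not in total mRNA (0.23, limma adjusted p 0.575). The call of Slc46a1 was lost with quantile normalization in both fractions.

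In the glycine cleavage system, the mitochondrial route that draws a carbon unit from glycine, 1 of 4 was called in each fraction, Gldc, where 30.3% of all genes were called in total mRNA and 13.5% on polysomes. It rose from 18.6 ± 13.3 normalised reads in WT to 71.2 ± 47.9 in R98S total mRNA (log2 fold change 1.96, limma adjusted p 0.002), and on polysomes it had 53.3 to 112.6 reads in R98S against 3.97 to 32.4 in WT (2.54, limma adjusted p 0.00113). With the replicate block Amt was called lower in total mRNA (-0.54, limma adjusted p 0.0655), as it was with quantile normalization, and Gcsh lower on polysomes (-0.43, limma adjusted p 0.0301).

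**Figure D5:**
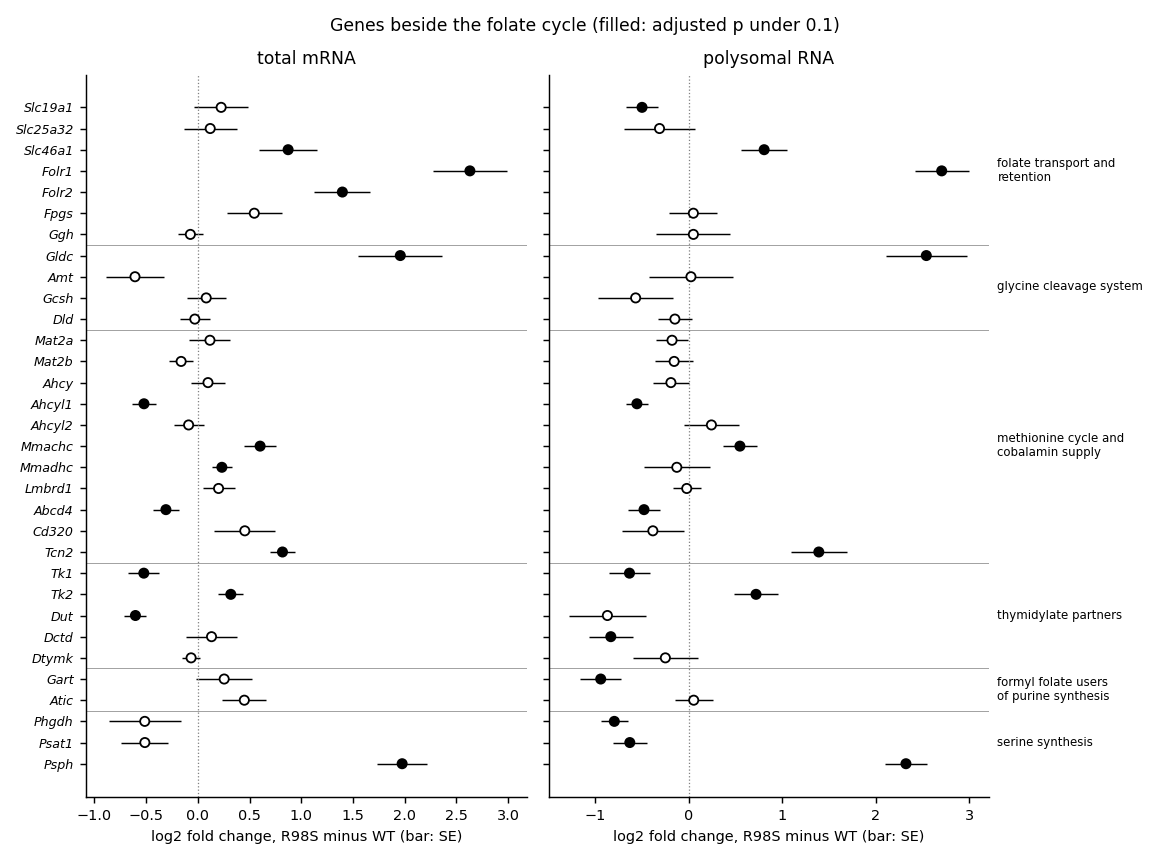
Log2 fold change of R98S against WT in total mRNA and polysomal RNA for the genes of folate transport, glycine cleavage, the methionine cycle, thymidylate, purine and serine synthesis, with bars for the SE and filled circles for a limma adjusted p under 0.1. Folr1, Gldc and Psph lie farthest to the right in both panels, between 1.96 and 2.70.

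Genes of the methionine cycle and of cobalamin supply, next to methionine synthase, were called in both directions. Of 11 genes of the methionine cycle and cobalamin supply, 3 were called higher and 2 lower in total mRNA, and 2 higher and 2 lower on polysomes, that is 5 and 4 of 11, where 30.3% and 13.5% of all genes were called. Tcn2, the carrier that brings cobalamin to cells, had 1017 to 1409 normalised reads in R98S and 446.6 to 823.4 in WT total mRNA, without overlap (log2 fold change 0.82, SE 0.12, limma adjusted p 0.000124), and it was higher on polysomes by 1.39 (limma adjusted p 0.0065). Mmachc, which processes cobalamin inside the cell, was higher by 0.60 (limma adjusted p 0.00959) in total mRNA and by 0.55 (limma adjusted p 0.077) on polysomes. Ahcyl1, which is related in sequence to the enzyme that clears S-adenosylhomocysteine, was lower in both, with log2 fold changes of -0.52 (limma adjusted p 0.0042) and -0.55 (limma adjusted p 0.00752). Among genes named after their values were seen, Abcd4, a cobalamin transporter of the lysosome, was lower in both (-0.31, limma adjusted p 0.0952, and -0.48, limma adjusted p 0.0928), and Cd320, the receptor for the Tcn2 complex, was not called in either (0.45, limma adjusted p 0.286, and -0.38, limma adjusted p 0.583). With quantile normalization the polysomal calls of Mmachc and Ahcyl1 were lost.

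Among the partners of Tyms, 3 of 5 were called in total mRNA, where 30.3% of all genes were called. Dut, which makes the dUMP that Tyms uses, had 2175 ± 333 normalised reads in R98S and 3304 ± 535 in WT (SD, n = 9 and 8, log2 fold change -0.60, limma adjusted p 0.000556). Tk1, the cytosolic thymidine kinase of the salvage route, had a log2 fold change of -0.52 (limma adjusted p 0.0166), and the mitochondrial kinase Tk2 one of 0.32 (limma adjusted p 0.0634). On polysomes 3 of 5 were called, where 13.5% of all genes were called. These were Dctd (-0.83, limma adjusted p 0.0342), Tk2 (0.72, limma adjusted p 0.0684) and Tk1 (-0.63, limma adjusted p 0.084), the last not with quantile normalization. Dut (-0.87, limma adjusted p 0.239) was called there with the replicate block (-0.67, limma adjusted p 0.00315), where 30.9% of all genes were called. Gart, a purine enzyme that uses formyl folate, was not called in total mRNA (0.25, limma adjusted p 0.532) but was lower on polysomes, ranging over 579.1 to 1367 reads for R98S and 1373 to 2553 for WT, without overlap (log2 fold change -0.94, SE 0.22, limma adjusted p 0.0117). Its TE differed by -1.11 (limma adjusted p 0.335), and with the replicate block it was called (limma adjusted p 0.042). Atic, the other such enzyme, had log2 fold changes of 0.45 (limma adjusted p 0.138, called with the replicate block at 0.0844) and 0.05 (limma adjusted p 0.927).

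The enzymes that make serine, the main carbon source of the cycle, differed in direction. Psph, the last step, was higher in R98S by 1.97 in total mRNA (limma adjusted p 1.4e-05) and 2.32 on polysomes (limma adjusted p 4.37e-06). Phgdh and Psat1, the steps before it, were lower on polysomes, with log2 fold changes of -0.80 (limma adjusted p 0.00158) and -0.63 (limma adjusted p 0.0372), and had -0.51 and -0.51 in total mRNA (limma adjusted p 0.313 and 0.115), where both were called with the replicate block (limma adjusted p 0.0572 and 0.0227). The polysomal call of Psat1 was lost with quantile normalization. Serine synthesis was the subject of the study on these cells, and these values are given as context.

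Folate enzymes are used in S phase, so markers of the cell cycle are given beside them. Of 12 S phase genes 3 were called in total mRNA, a share below the 30.3% of all genes, and all 3 were lower in R98S, namely Rrm2 (log2 fold change -1.02, limma adjusted p 0.0011), Mcm7 (-0.32, limma adjusted p 0.0168) and Ccne1 (-0.47, limma adjusted p 0.097). Of 7 G2 and M phase genes 4 were called, against the same 30.3%, all lower, with Cdk1 (-0.57, limma adjusted p 0.000164), Ccnb1 (-0.41, limma adjusted p 0.00635) and Mki67 (-0.55, limma adjusted p 0.0265) having the smallest adjusted p. Ccna2, of the same list and named after its value was seen, had 0.30 (limma adjusted p 0.171) and was called higher with quantile normalization. The list medians were -0.14 and -0.41 against 0.00 over all genes. On polysomes 1 of the 12 S phase genes, Rrm2 (-0.66, limma adjusted p 0.041), was called, where 13.5% of all genes were called. With the replicate block 5 were called, all lower, where 30.9% of all genes were called and 15.7% called lower. Of the 7 G2 and M phase genes on polysomes limma called 0, and with the block 1, lower, against the same shares of all genes. With TMM scaling Ccne1 and Cdk1 were also called lower on polysomes. The part of these genes in the differences of Mthfd1l, Dut and Tk1 was not tested.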

How the data were processed

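Total mRNA and polysomal RNA of Ba/F3 clones were taken from 2 gene tables of 17 and 14 libraries. The authors deposited a signal per gene, read counts divided by size factors that DESeq2 had estimated separately for the 2 tables. Per the labels and methods, libraries were made with the TruSeq Stranded mRNA kit, rRNA and tRNA reads were removed with Bowtie2, reads were aligned to mm10 with TopHat2 2.0.11, and HTSeq, SAMtools and DESeq2 are named in the submitters' processing notes. The annotation and the use of strand in counting were not given in the sources used here. Reads came out whole for 100% of values (tolerance 0.01), between 8831180 and 22059792 per library.

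Groups, clones and replicate numbers came from the labels. R98S was compared with WT in each table on log2(value + 1), keeping genes whose mean reached 10, by limma 3.58.1 (lmFit and eBayes with a variance trend, R 4.3.3), over all genes with Benjamini-Hochberg adjustment, two-sided, called at an adjusted p under 0.1, the false discovery rate of the study. Fold changes are on that log2 scale and understate those of low genes. The study used DESeq2 for transcript levels and Babel for TE. TE was tested in the same way over 14 cultures with both libraries. Clones are single-cell derived lines, 3 per genotype, and repeated cultures of a clone were treated as samples, so p-values measure the spread between these libraries more than that between clones.

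Deviations of R98S and WT libraries of the same number correlated over genes at r = 0.62, 0.549 and 0.481 (total mRNA), r = 0.695, 0.666 and 0.867 (polysomal RNA) and r = 0.671, 0.538 and 0.812 (TE) for numbers 1 to 3, so by a rule of r over 0.1 in each the numbers pair the samples, and the value with the number as a block is given where it changes a call. Alternatives were pseudocount 5, no filter, TMM, quantile normalization, clone means, clone as a random block, edgeR 4.0.16 and DESeq2 1.42.0 on the recovered reads, leaving out each number and clone, and the matched cultures. Leaving out the total mRNA libraries of number 3 that deviated together, for total mRNA and TE also with the block, was chosen after seeing the data. So were leaving out polysomal RNA of WT clone 28 with number 2 and averaging the closest pair.

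The members, the 9 gene lists and the alternatives were chosen with earlier results of these data known. The list of other folate interconversion enzymes and a lymphoid marker are not reported here. All 8 members are named, of other lists at most the 3 genes with the smallest adjusted p in a comparison, except where stated, together with Psph, Phgdh and Psat1. Exon lengths came from GENCODE M21 and promoter windows from RefSeq, with all 8 members matched.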

Additional observations from a re-analysis of the deposited data

Results flagged for a closer look

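In 48 groups of values (8 genes, 3 measures and 2 genotypes) a single value stood apart from the rest of its group by Dixon's test at the 95% level, which chance alone does for about 1 group in 20. It was TE of Tyms in WT clone 36 with number 3, at 1.96, where the other 5 WT cultures had 0.44 to 0.88. Its total mRNA library is 1 of the 2 of number 3 that deviated together, and the other of them, R98S clone 13, had the highest Tyms TE of the R98S cultures at 1.99.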

How the results depend on the processing

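With the replicate number as a block, calls were gained for Mthfd2 in total mRNA and for Mthfd1l and Shmt2 in polysomal RNA (3 members called), and no other member's call changed. In total mRNA 1 member was called with quantile normalization and 0 over the matched cultures, where fewer samples were tested. In polysomal RNA 0 members were called with no filter and 0 with R98S clone 13 averaged. Leaving out each number or clone gave 0 to 3 members called in total mRNA, 0 to 4 in polysomal RNA and 0 in TE. The sign of the log2 difference turned for Mthfd1 in total mRNA with DESeq2 (-0.01). Without the polysomal library of WT clone 28 of number 2 it turned for Mtr in polysomal RNA (0.05) and for Shmt2 (0.14), Mthfd1l (0.02) and Mthfd2 (0.25) in TE. TE of Mthfd2 and Tyms also turned with the block (0.31 and 0.12), quantile normalization (0.11 and 0.10), clone as a random block (0.04 and 0.09), the 2 total mRNA libraries of number 3 left out (0.07 and 0.04, or 0.47 and 0.13 with the replicate block as well) and clone 13 averaged (0.07 and 0.03). Left-out numbers and clones gave ranges across 0 in total mRNA for Shmt2 (-0.48 to 0.21), Mthfd1 (-0.08 to 0.29) and Tyms (-0.23 to 0.09), in polysomal RNA for Mthfd1 (-0.85 to 0.03), Mtr (-0.50 to 0.32) and Mtrr (-0.25 to 0.23), and in TE for Shmt2 (-0.86 to 0.23), Mthfd1 (-0.82 to 0.05), Mthfd1l (-0.59 to 0.23), Mthfd2 (-0.70 to 0.35), Tyms (-0.31 to 0.20) and Mtr (-0.72 to 0.02). The cause was not tested.

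Over all genes, 3369 were called in total mRNA, 1338 without number 3, 1895 without R98S clone 11 and 2213 without WT clone 28. In polysomal RNA 1449 were called, 3307 with the block, 751 with clone means, 608 without number 1 and 822 without R98S clone 35. In TE 4 were called, 50 with the block, 80 with clone as a random block, 37 with DESeq2, 65 without WT clone 29, 81 with the block and without the 2 total mRNA libraries of number 3, and 0 to 2 with pseudocount 5, TMM, quantile normalization, clone means, edgeR, the alternatives without the block that were chosen after seeing the data, and without number 1, number 3 or, in turn, R98S clones 11, 13 and 35 and WT clone 28. Each genotype has 3 clones, and WT clone 36 has 1 polysomal library, which limits what can be separated from differences between clones.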
